A study of Homo sapiens with 6 samples.

Results

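The genes described here are 6 myeloid granule and maturation genes, MPO, CLC, S100A9, CSF3R, VCAN and ALOX5, out of 14884 genes with a named array feature. They were picked by name with earlier results of these arrays in view, so their levels and differences are given as a description, without a test. Each gene stands for its brightest named feature, and all 6 had one. The study profiled total RNA on 6 whole-transcript arrays from MOLM14, a cell line established from a human acute myeloid leukaemia with monocytic features. For 3 arrays the culture was transfected with siRNA directed at ATF4 (siATF4), and for the other 3 with a non-targeting control siRNA (siCTRL). Both siRNAs were given at 70 nM by electroporation with the Neon system, and they came from different suppliers. All samples are of this 1 line, and the sources used here do not give the time between transfection and harvest. The labels number the samples 1 to 3 and call them technical replicates, so a p-value here reflects the spread between such samples, which may be technical and not biological.

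Granulocytes and monocytes acquire their proteins in a sequence. Primary (azurophil) granule enzymes such as myeloperoxidase are made mainly at the promyelocyte stage, and secretory, receptor and alarmin genes are switched on later or in other branches of the lineage. The transcription factors PU.1 and the C/EBP family act at many of these promoters. ATF4 is a stress-induced transcription factor of the bZIP class that pairs with C/EBP proteins on composite sites. MOLM14 is a monoblastic line with a fusion of KMT2A to MLLT3 and a duplicated segment in FLT3.

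Promoter sequence from RefSeq (GRCh38.p14) was matched for 4 of the 6 genes, CLC, S100A9, CSF3R and VCAN, with 2 start sites for CSF3R. MPO and ALOX5 were not matched. The 250 bases before the start are shown for 3 genes that took different courses over the arrays, as context for the C/EBP and PU.1 background above. Capitals mark every GCAAT (a core of the C/EBP site) and AGGAAG (an ETS core of the kind PU.1 binds), on either strand, with their reverse complements ATTGC and CTTCCT.
CLC, minus strand, chr19:39738030-39738279: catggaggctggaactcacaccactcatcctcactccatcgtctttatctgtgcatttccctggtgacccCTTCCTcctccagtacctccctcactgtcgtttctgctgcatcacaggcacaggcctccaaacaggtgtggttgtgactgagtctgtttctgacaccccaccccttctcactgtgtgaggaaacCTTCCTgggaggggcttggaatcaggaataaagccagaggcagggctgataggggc
S100A9, plus strand, chr1:153357604-153357853: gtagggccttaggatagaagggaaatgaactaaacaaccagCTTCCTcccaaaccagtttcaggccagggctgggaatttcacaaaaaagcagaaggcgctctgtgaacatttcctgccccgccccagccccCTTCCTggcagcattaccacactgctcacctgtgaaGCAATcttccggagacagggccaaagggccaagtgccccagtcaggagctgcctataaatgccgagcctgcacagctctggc
CSF3R, minus strand, chr1:36482914-36483163, the start site nearer to the gene body: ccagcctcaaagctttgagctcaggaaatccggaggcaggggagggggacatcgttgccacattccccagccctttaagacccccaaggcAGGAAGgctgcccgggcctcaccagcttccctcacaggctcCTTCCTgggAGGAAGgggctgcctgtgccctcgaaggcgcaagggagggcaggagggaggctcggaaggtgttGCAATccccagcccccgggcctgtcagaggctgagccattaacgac
The CLC window held 2 copies of AGGAAG and 0 of GCAAT. The S100A9 window held 2 of AGGAAG and 1 of GCAAT, and this CSF3R window 3 and 1. The other CSF3R window held 1 of GCAAT and 0 of AGGAAG, and the VCAN window 1 of AGGAAG and 0 of GCAAT. Over 35116 RefSeq windows of the same length, 21.3% held GCAAT at least once and 28.7% held AGGAAG. With 2 or more copies the shares were 3.47% for GCAAT and 5.77% for AGGAAG. The composite TGATGNAA and the element TGACGT were searched on both strands too. Neither was in these 5 windows, and they were in 3.14% and 7.10% of all windows. A match or its absence describes letters only.

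ATF4, the targeted gene, read 7.72, 7.88 and 8.14 on siATF4 replicates 1, 2 and 3 and 8.67, 8.64 and 8.85 on siCTRL replicates 1, 2 and 3, so the groups did not overlap. The array labelled siATF4 replicate 1 stood apart from the rest. There 593 genes (3.98%) lay more than 1 log2 from the mean of the other 5 arrays, 293 above and 300 below, while the other arrays had 21 to 268 such genes. The differences of the 6 genes are therefore given with and without that array. Without it, siATF4 replicates 2 and 3 were set against all 3 siCTRL arrays, so a difference between replicate numbers also enters those values. Array medians lay between 3.88 and 3.96. Features below about 3.4, the lower quartile of an array (3.38 to 3.45), are dim and their differences less certain. In limma no gene passed an adjusted p of 0.05 between the groups (0 of 14884, 0.00% in either direction). At an unadjusted p below 0.05, limma gave 139 genes higher and 79 lower with siATF4 (0.934% and 0.531%), 218 in all, and 464 with the replicate number as a block. Of the 6 genes, 0 had groups that did not overlap. Over all genes 3.30% lay wholly above and 2.59% wholly below the control arrays.

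MPO encodes myeloperoxidase, the haem enzyme of azurophil granules that makes hypochlorous acid. Its log2 level was 5.58, 8.45 and 10.45 on siATF4 replicates 1, 2 and 3 and 9.11, 9.53 and 10.17 on siCTRL replicates 1, 2 and 3. The lowest and the highest of the 6 values were thus both siATF4 arrays, and in each group the array numbered 3 was the highest. The group means were 8.16 ± 2.45 for siATF4 and 9.60 ± 0.54 for siCTRL (SD, n = 3 each). Their log2 difference of -1.45 (SE 1.12) was smaller than the SD of the siATF4 arrays. Between arrays of the same number the difference was -3.53, -1.08 and 0.27. The first of these corresponds to a level 11.6-fold lower on siATF4 replicate 1 than on siCTRL replicate 1. Without siATF4 replicate 1 the group difference was -0.16. In whole-culture RNA, fewer cells that express a gene and less RNA per cell cannot be told apart.

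CLC encodes galectin-10, the protein of Charcot-Leyden crystals, which is abundant in eosinophils and basophils. CLC read 4.06, 8.33 and 9.64 on siATF4 replicates 1 to 3 and 7.70, 8.64 and 9.09 on siCTRL replicates 1 to 3. The siATF4 replicate 1 value lay close to the median feature of its array, and the other 5 values spanned 1.94 log2. The means were 7.35 ± 2.92 and 8.48 ± 0.71 (SD, n = 3 each), a difference of -1.13 (SE 1.34). By replicate number the differences were -3.64, -0.31 and 0.55, so the sign was not the same in all numbers. The difference turned to 0.51 without siATF4 replicate 1. CLC followed the course of MPO: both were lowest on siATF4 replicate 1, highest on siATF4 replicate 3 and next highest on siCTRL replicate 3.

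S100A9 is a calcium-binding protein that pairs with S100A8 to form calprotectin, a cytosolic complex of neutrophils and monocytes. Its level was 4.81, 6.45 and 4.81 on siATF4 replicates 1 to 3 and 7.23, 6.52 and 4.91 on siCTRL replicates 1 to 3. Here 3 arrays were low, siATF4 replicates 1 and 3 and siCTRL replicate 3, and siCTRL replicate 1 was the highest. The means of 5.36 ± 0.95 and 6.22 ± 1.19 (SD, n = 3 each) differed by -0.86 (SE 0.68). The differences by number were -2.42, -0.07 and -0.10, and the group difference was -0.36 without siCTRL replicate 1, -0.59 without siATF4 replicate 1 and -1.52 without siCTRL replicate 3. The partner gene S100A8 read 6.0, 8.09 and 5.60 against 8.21, 7.93 and 5.77, with a difference of -0.74 (SE 0.84), or -0.46 without siATF4 replicate 1. S100A8 and S100A9 were thus low on the same 3 arrays.

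CSF3R is the receptor for granulocyte colony-stimulating factor, which drives the proliferation and maturation of neutrophil precursors. It read 7.40, 6.39 and 4.53 on siATF4 replicates 1 to 3 and 6.42, 5.88 and 4.42 on siCTRL replicates 1 to 3. Each siATF4 array was above the siCTRL array of its own number, by 0.99, 0.51 and 0.11. Of all 14884 genes, 2137 were higher and 1370 lower with siATF4 in every replicate number. The range of CSF3R over numbers within a group was 2.88 with siATF4 and 2.00 with siCTRL. The means of 6.11 ± 1.46 and 5.58 ± 1.03 (SD, n = 3 each) differed by 0.53 (SE 0.80). Without siATF4 replicate 1 the difference of means was -0.11, with siATF4 replicates 2 and 3 set against all 3 siCTRL arrays. Without both arrays numbered 1 it was 0.31. Both arrays numbered 3 were the lowest, the reverse of MPO and CLC.

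VCAN encodes versican, a large chondroitin sulphate proteoglycan that monocytes make among blood cells. VCAN read 5.85, 3.14 and 3.18 on siATF4 replicates 1 to 3 and 3.18, 3.38 and 3.23 on siCTRL replicates 1 to 3. On 5 arrays it was dim, below the lower quartile of the array, and siATF4 replicate 1 alone read higher. The means of 4.06 ± 1.56 and 3.27 ± 0.10 (SD, n = 3 each) differed by 0.79 (SE 0.70), and without siATF4 replicate 1 by -0.11. The differences by number were 2.67, -0.25 and -0.05. VCAN was the only one of the 6 genes with 2 named features. The dimmer one read between 2.53 and 2.78 with 2.78 on siATF4 replicate 1 and 2.53 to 2.68 on the other arrays, and the mean of both features gave a difference of 0.42.

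ALOX5 is arachidonate 5-lipoxygenase, which carries out the first steps of leukotriene synthesis in granulocytes and monocytes. ALOX5 read 6.62, 4.77 and 3.55 on siATF4 replicates 1 to 3 and 4.81, 4.67 and 3.90 on siCTRL replicates 1 to 3. The value on siATF4 replicate 1 was the highest and the arrays numbered 3 were the lowest, at or below the median feature. The means of 4.98 ± 1.55 and 4.46 ± 0.49 (SD, n = 3 each) differed by 0.52 (SE 0.73), with 1.81, 0.10 and -0.35 by number. The difference turned to -0.30 without siATF4 replicate 1.

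**Figure D1:**
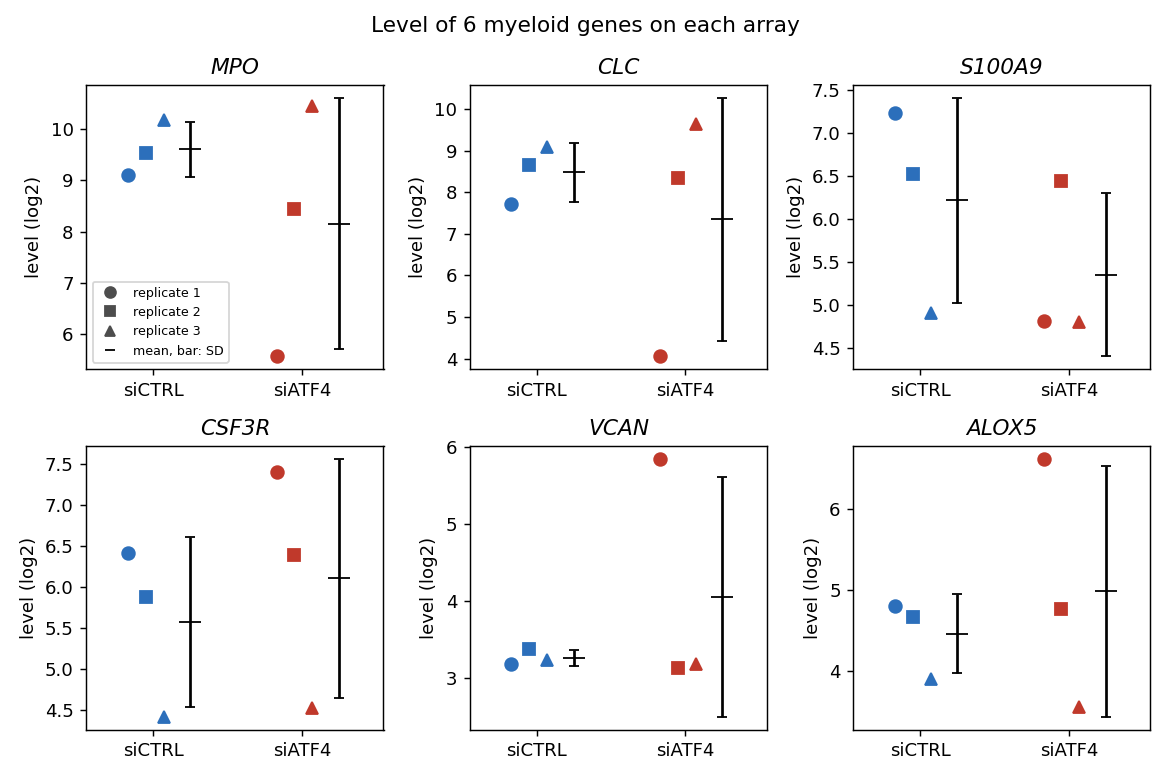
Log2 level of MPO, CLC, S100A9, CSF3R, VCAN and ALOX5 on each of 3 siCTRL (blue) and 3 siATF4 (red) arrays, with the symbol giving the replicate number and the black mark and bar the mean and SD. siATF4 replicate 1 lies lowest for MPO (5.58) and CLC (4.06) and highest for CSF3R (7.40), VCAN (5.85) and ALOX5 (6.62).

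siATF4 replicate 1 was therefore an extreme for 5 of the 6 genes, in 2 directions. Its gap to the mean of the other 5 arrays was -3.96 for MPO and -4.62 for CLC, against 1.87 for CSF3R, 2.63 for VCAN and 2.28 for ALOX5. For S100A9 the gap was -1.17, within the range of 2.42 that the other arrays spanned. The same array held the highest value for 22.8% of all 14884 genes and the lowest for 23.6%. The plot of differences within replicate numbers shows the contrast with ATF4, whose differences by number lay between -0.94 and -0.70.

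**Figure D2:**
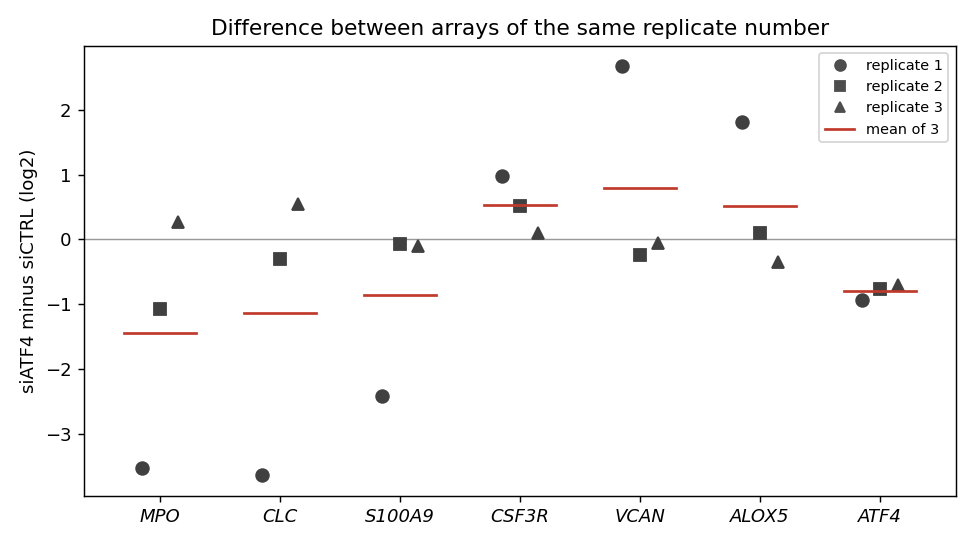
Difference in log2 level, siATF4 minus siCTRL, between arrays of replicate numbers 1, 2 and 3 (symbols) with their mean (red line), for the 6 myeloid genes and ATF4. For 5 of the 6 genes the arrays numbered 1 differ by at least 1.81 in size and the other numbers by at most 1.08, CSF3R ranges from 0.11 to 0.99, and ATF4 stays between -0.94 and -0.70.

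The replicate number carried most of the spread of CSF3R, but for S100A9 and VCAN its share was below that of the median gene. A single outlying array, such as siATF4 replicate 1 for VCAN, also adds to the share between numbers and to the share between the groups. Of the summed squared deviations of CSF3R from its mean over the 6 arrays, 90.9% lay between replicate numbers, 6.27% between the groups and 2.84% in neither. The share between numbers was 69.7% for ALOX5, 65.8% for CLC, 56.3% for MPO, 49.0% for S100A9 and 37.9% for VCAN, and the median over all genes was 51.2%. The share between the groups was 20.0% for MPO, 19.4% for S100A9, 16.2% for VCAN, 9.63% for CLC and 7.21% for ALOX5, with a median of 8.58% over all genes. For ATF4 it was 89.4%. The group shares of MPO, CLC, VCAN and ALOX5 include the distance of siATF4 replicate 1 from the other arrays. A group share above the median therefore does not measure an effect of the siRNA alone. On the siCTRL arrays alone the SD was 1.19 for S100A9 and 1.03 for CSF3R, larger than in 99.8% and 99.5% of genes, where the median gene had 0.16. MPO, CLC and ALOX5 exceeded 95.5%, 98.0% and 94.1% of genes there, and VCAN 26.5%. Spread between control arrays was thus large for 5 of these genes beside all genes, dim ones included. VCAN, dim on all 3 control arrays, was the exception. As the genes were picked with earlier results of these arrays in view, these ranks are a description only.

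Other genes with the same course over the arrays were found by the root mean square (RMS) difference between the deviations of 2 genes from their own means over the 6 arrays, among genes brighter than the median gene. The RMS difference is small where a gene keeps the shape and the size of the course. GTSF1 lay nearest to MPO, with an RMS difference of 0.31 where MPO itself had an RMS deviation of 1.62, followed by PROSER1 (0.45) and CLC (0.46). HOXD13, a homeobox gene, lay nearest to CLC (0.33), followed by GTSF1 (0.43) and MPO (0.46). HOXD13 read 3.02, 6.83 and 8.86 on siATF4 replicates 1 to 3 and 6.20, 7.0 and 8.16 on siCTRL replicates 1 to 3, so it too was low on siATF4 replicate 1. MPO and CLC were thus among the nearest genes of each other.

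S100A9 had CPM, a membrane carboxypeptidase, at 0.17, the ectoenzyme CD38 at 0.20 and the interferon-induced gene EPSTI1 at 0.20 as its nearest genes. CSF3R had FRY (0.13), the antisense transcript ZEB2-AS1 (0.20) and PSTPIP2 (0.23). ALOX5 had DLGAP1-AS3 (0.18), the macrophage colony-stimulating factor receptor CSF1R (0.19) and IPCEF1 (0.19). CSF1R stood at 8.18, 6.26 and 5.10 on siATF4 replicates 1 to 3 and at 6.57, 6.22 and 5.05 on siCTRL replicates 1 to 3. VCAN had RASGRP4 (0.18), the phospholipid transfer protein PLTP (0.24) and SIGLEC14 (0.25). PLTP read 8.03 on siATF4 replicate 1 and 4.63 to 4.90 on the other arrays. The search took only genes brighter than the median gene in the mean of all 6 arrays, the high array included. That the neighbours of VCAN were brighter than VCAN was therefore set by the search. These likenesses rest on 6 arrays that share their replicate numbers, and are given as a description.

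**Figure D3:**
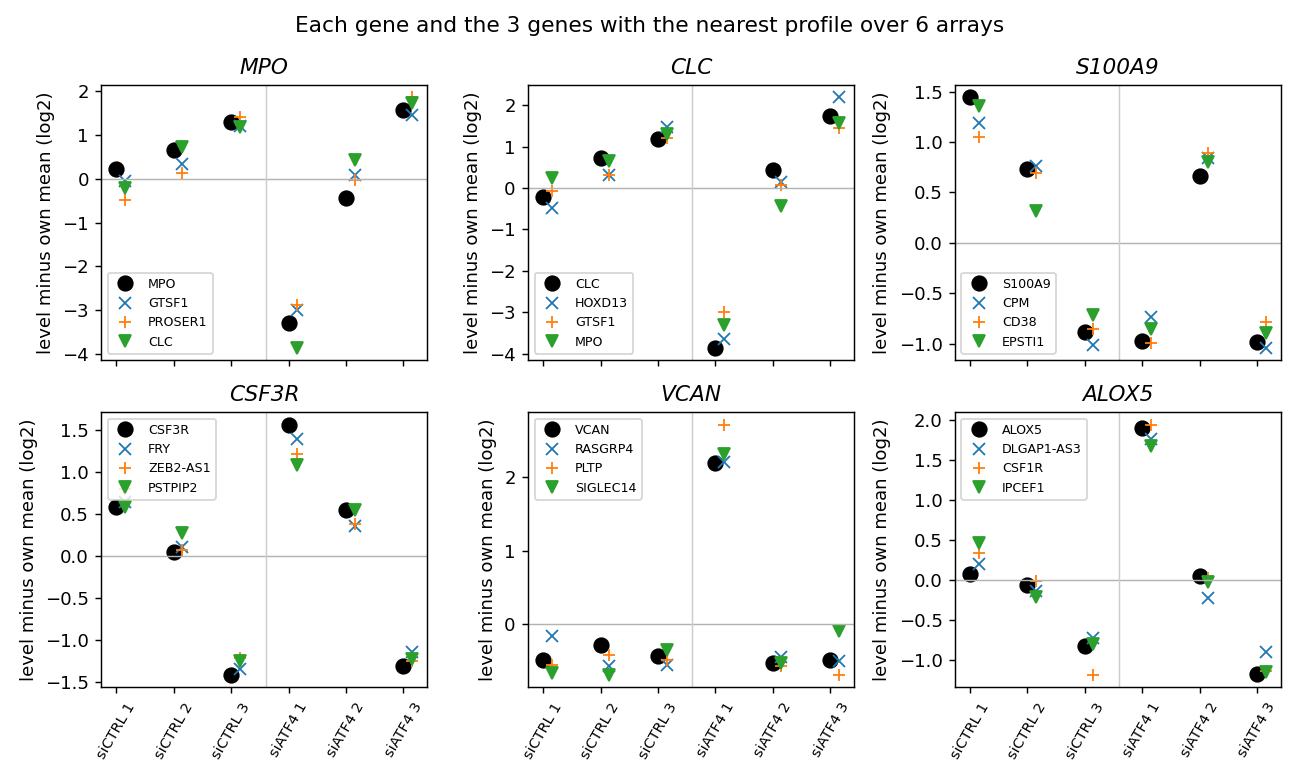
Deviation of each of the 6 genes (black) from its own mean over the arrays, in log2, with the 3 genes of nearest course (coloured symbols), for 3 siCTRL and 3 siATF4 arrays. MPO and CLC with their neighbours are lowest on siATF4 replicate 1, VCAN with its neighbours is high on that array alone, and CSF3R with its neighbours is lowest on both arrays numbered 3.

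The wider myeloid programme was described with 9 lists of related genes, which do not contain the 6. Of 170 measured genes in them, 81 were higher and 89 lower in the mean with siATF4, with a median difference of -0.01 beside 0.01 over all genes. Over all 14884 genes 8010 were higher and 6873 lower. In limma 0 of the 170 passed an adjusted p of 0.05 (0.00% of all genes did). At an unadjusted p below 0.05 there were 4 higher and 0 lower, beside 0.934% and 0.531% of all genes. The groups did not overlap for 9 of the 170 genes, 8 higher (4.71%, beside 3.30% of all genes) and 1 lower (0.588%, beside 2.59%). Without siATF4 replicate 1 the counts were 74 higher and 96 lower, beside 8113 and 6771 over all genes, with a median of -0.03 beside 0.02.

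Of 11 measured azurophil granule genes, companions of MPO, 4 were higher and 7 lower, with a median of -0.04. The serine protease gene CTSG read 7.64 on siATF4 replicate 1 and 8.93 to 9.35 on the other arrays, a difference of -0.48 (SE 0.41), or 0.02 without siATF4 replicate 1. PRTN3, another granule protease, read 11.85 on that array and 10.61 to 11.23 elsewhere, a difference of 0.31 (SE 0.28), or 0.02 without that array. Of these products of 1 granule, PRTN3 was at its highest on siATF4 replicate 1, and CTSG and MPO were at their lowest. In 9 of the 11 genes the array numbered 1 exceeded the array numbered 3 in both groups, and in 0 the reverse held. MPO was higher on the arrays numbered 3 in both groups. Such orders were not counted over all genes, so they are not shown to be particular to a list.

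Among 21 genes of specific and gelatinase granules 7 were higher and 14 lower (median -0.03), and 4 had a mean below the lower quartile of features. CHI3L1, a chitinase-like glycoprotein of specific granules and macrophages, read 5.97, 10.17 and 8.12 on siATF4 replicates 1 to 3 and 10.56, 10.23 and 8.31 on siCTRL replicates 1 to 3. Its difference was -1.61 (SE 1.08), or -0.55 without siATF4 replicate 1, and by number -4.59, -0.06 and -0.19. The protease inhibitor SLPI was at -0.92 (SE 0.77). LTF and MMP8, both late granule products, stayed between 3.16 and 3.66 on all arrays.

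The eosinophil and basophil list, companions of CLC, had 8 higher and 3 lower of 11 genes (median 0.10), and 2 with no overlap. These were the mast cell tryptases TPSB2, at 1.13 (SE 0.67) or 0.27 without siATF4 replicate 1, and TPSAB1, at 0.56 (SE 0.16, limma unadjusted p = 0.0104, adjusted p = 1.00). The 2 tryptase genes are near-identical copies, so their values are uncertain. EPX, the eosinophil peroxidase, read between 3.46 and 4.86. GATA2, a transcription factor of these lineages, stood at 4.62, 6.21 and 6.77 on siATF4 replicates 1 to 3 and at 5.23, 5.70 and 6.72 on siCTRL replicates 1 to 3, lowest on arrays numbered 1 as CLC was.

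Of 22 S100 genes and their receptors or partners 11 were higher and 11 lower (median -0.01). S100A8 had the largest difference, given above, and TLR4, a receptor for calprotectin, was at 0.48 (SE 0.36). S100B was at 0.27 (SE 0.11, limma unadjusted p = 0.045, adjusted p = 1.00), with no overlap, but it was dim, at 2.91 to 3.37 on all arrays. S100A5 at -0.25 (SE 0.11) was the 1 gene of the 9 lists wholly below the control arrays. S100A12, another calgranulin, was at -0.22 (SE 0.36), and read 4.33 on siCTRL replicate 1 and 3.41 on siATF4 replicate 1. Of 23 type I interferon genes 0 were higher and 23 lower in the mean with siATF4, with a median of -0.51, or -0.31 without siATF4 replicate 1, -0.05 without siCTRL replicate 1 and 0.08 without both arrays numbered 1. Their mean level was 4.95, 6.0 and 5.04 on siATF4 replicates 1 to 3 and 6.71, 5.84 and 5.05 on siCTRL replicates 1 to 3. The mean level was thus highest on siCTRL replicate 1 and low on the 3 arrays where S100A9 was low. IFIT1 was at -1.06 (SE 0.70), or -0.66 without siATF4 replicate 1, and by number at -3.17, 0.03 and -0.03. IFITM1 was low on siATF4 replicate 1 alone, with a difference of -1.31 (SE 0.91), or -0.13 without that array. The part of these genes in the S100A9 values was not tested.

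Of 11 haematopoietic cytokine receptors beside CSF3R 5 were higher and 6 lower (median -0.04). CSF1R was at 0.57 (SE 0.78), or -0.26 without siATF4 replicate 1, and IL6R, a receptor for interleukin 6, at 0.28 (SE 0.20), or 0.13 without it. Of 28 hyaluronan and proteoglycan genes, the matrix partners of versican, 8 were higher and 20 lower (median -0.05), and without siATF4 replicate 1 the counts were 13 and 15. The xylosyltransferases XYLT1 and XYLT2, which start the sugar chains of proteoglycans, were at 0.45 (SE 0.29) and 0.40 (SE 0.15), or 0.16 and 0.33 without siATF4 replicate 1. XYLT2 did not overlap between groups (limma unadjusted p = 0.0314, adjusted p = 1.00).

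Of 24 leukotriene and eicosanoid genes, companions of ALOX5, 16 were higher and 8 lower (median 0.10), or 14 and 10 without siATF4 replicate 1. CYSLTR1, a receptor for cysteinyl leukotrienes, did not overlap between groups, at 0.51 (SE 0.21, limma unadjusted p = 0.0466, adjusted p = 1.00), and the cyclooxygenase PTGS1 was at 0.53 (SE 0.36). Without siATF4 replicate 1 they were at 0.29 and 0.10. ALOX5AP, which presents arachidonate to ALOX5, had levels of 9.39, 9.35 and 9.90 on siATF4 replicates 1 to 3 and 9.13, 9.28 and 9.72 on siCTRL replicates 1 to 3. Its difference was 0.17 (SE 0.21), and unlike ALOX5 it was highest on both arrays numbered 3. LTA4H and LTC4S, which make leukotrienes B4 and C4, were at 0.12 (SE 0.27) and 0.32 (SE 0.21), or -0.02 and 0.11 without siATF4 replicate 1. By number LTA4H differed by 0.06, 0.25 and 0.05.

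The 28 myeloid transcription factors divided into 14 higher and 14 lower (median 0.00). SPI1, which encodes PU.1, was at 0.24 (SE 0.20), JUN at 0.61 (SE 0.59) and JUND at -0.52 (SE 0.37), or 0.08, 0.58 and -0.33 without siATF4 replicate 1. Of 16 monocyte and macrophage genes 9 were higher and 7 lower (median 0.07), and without siATF4 replicate 1 the counts were 1 and 15 with a median of -0.14. That setting kept siCTRL replicate 1, and without both arrays numbered 1 the median was -0.01. The chemokine receptor CX3CR1 was at 0.50 (SE 0.48) and the lysosomal glycoprotein CD68 at 0.37 (SE 0.47). Without siATF4 replicate 1, with all 3 siCTRL arrays kept, they were at -0.05 and -0.10. By number the differences were 1.25, 0.10 and 0.13 for CX3CR1 and 0.91, 0.35 and -0.15 for CD68. For 13 of these 16 genes the array numbered 1 exceeded the array numbered 3 in both groups, as it did for CSF3R and ALOX5. This order was not counted over all genes. The mean level of the list was 6.29, 5.86 and 5.24 on siATF4 replicates 1 to 3 and 6.01, 5.81 and 5.32 on siCTRL replicates 1 to 3.

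**Figure D4:**
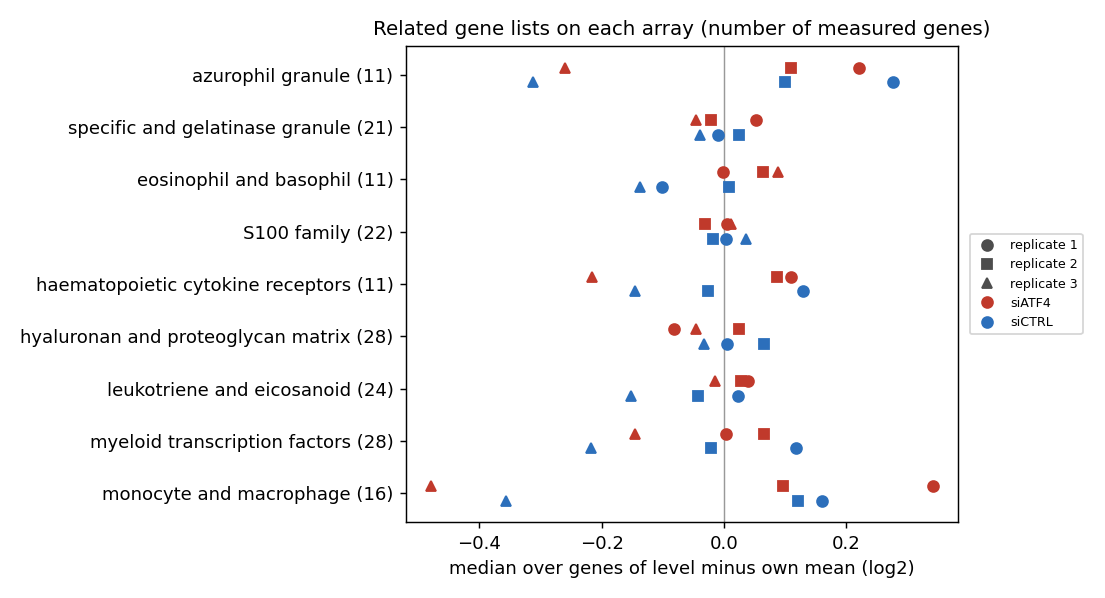
Median over the genes of each related list of the deviation from the gene's own mean, in log2, for 3 siATF4 (red) and 3 siCTRL (blue) arrays with the symbol giving the replicate number and the number of measured genes in brackets. For the azurophil granule, cytokine receptor, monocyte and transcription factor lists both arrays numbered 3 are the lowest, and in all 9 lists the red and blue symbols overlap.

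Genes of G2/M and mitosis also differed by replicate number. In an order not counted over all genes, all 20 measured ones were higher on number 3 than on number 1 in both groups. Their mean level was 7.97, 7.16 and 8.44 on siATF4 replicates 1 to 3 and 7.58, 7.49 and 8.39 on siCTRL replicates 1 to 3, with PLK1 at 0.38 (SE 0.53) and PTTG1 at 0.34 (SE 0.23), or 0.11 and 0.32 without siATF4 replicate 1. The part of these values in the levels of MPO and CLC, which were also highest on number 3, was not tested.

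The labelled cell type was checked against its markers. FLT3 read 8.19 to 9.67, SPI1 7.78 to 8.52, LYZ, which encodes lysozyme, 8.33 to 10.87, and CSF1R 5.05 to 8.18, while CD14 stayed between 3.22 and 4.18. CD33, ITGAM and ELANE were not analysed here. Markers of other lineages were mostly dim: the mean level per array was 4.42 to 4.63 for 10 T and NK cell genes, 3.89 to 4.30 for 5 B cell genes, 3.70 to 3.83 for 3 erythroid genes, 3.65 to 3.80 for 4 megakaryocyte genes and 3.37 to 3.56 for 6 stem cell genes. NKG7 (0.25, SE 0.28, or 0.07 without siATF4 replicate 1) and NCAM1 (-0.22, SE 0.17) were the T and NK genes above the upper quartile of features. PAX5, a B lineage transcription factor, read 3.76 on siATF4 replicate 1 and 5.28 to 6.12 on the other arrays, low where MPO and CLC were low. FCRLA was at 0.15, or -0.19 without siATF4 replicate 1, AHSP at -0.19, EPB42 at 0.14, PF4 at -0.19, GP9 at 0.15, AVP at -0.19 and HLF at -0.16.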

How the data were processed

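Per the labels' protocols, 100 ng of total RNA per sample was labelled with an Affymetrix whole-transcript kit. The values that the authors deposited were taken to be log2 and already normalized. Per the submitters' processing notes Partek was used, and the sources used here do not give its version, the background correction or the normalization. Of 53617 features, 16098 carried 1 gene symbol in the platform annotation, 37519 carried no symbol and 0 carried several. All 16098 gene identifiers matched the GRCh38.p14 gene table, with 0 symbols updated. The brightest feature stood for each of 779 genes with several, which left 14884 genes. The number of arrays limits the precision.

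Groups were compared in R 4.3.3 with limma 3.58.1 (lmFit, then eBayes, group as the only term, Benjamini-Hochberg over all genes, threshold 0.05), tested on simulated data. The simulated noise was independent for each array, without replicate numbers or an outlying array. It therefore does not show how the fit behaves with those features of the real arrays. SE is limma's moderated standard error, and differences are siATF4 minus siCTRL. Deviations from group means correlated across genes at 0.20, 0.40 and 0.62 between arrays of the same number 1, 2 and 3, all over the limit of 0.1. On that basis differences by number are given, and the replicate number was run as a block as an alternative. The SEs and the p-values of named genes come from the fit with group only and do not use such pairs. siATF4 replicate 2 correlated at 0.48 with siCTRL replicate 1, more than siATF4 replicate 1 did, so the pairing of number 1 is the least clear.

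The 6 genes and the 16 gene lists (368 genes, 241 measured) were chosen with earlier results of these data known. Genes named were the 6, ATF4, from each list the called genes or, with none called, the 2 largest differences, and the 3 nearest courses per gene. Other genes of the lists were named after their values were seen. Alternatives were quantile normalization, equal medians, all features of a gene averaged, the replicate block, a trended robust prior, array weights, a dim filter, all features tested and each array left out. Leaving out both arrays numbered 1 was chosen after seeing the data.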

Additional observations from a re-analysis of the deposited data

How the results depend on the processing

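The count of 0 genes called in limma was the same under every alternative run, and with the replicate block it was 0 too, with 464 genes at an unadjusted p below 0.05 against 218. With each array left out that last count ranged from 152 to 395. The differences of the 6 genes kept their direction under quantile normalization, equal medians, averaged features and the replicate block, and the block left the differences themselves as they were, for example -1.45 for MPO. With each array left out in turn they ranged from -2.59 to -0.16 for MPO, -2.28 to 0.51 for CLC, -1.52 to -0.36 for S100A9, -0.11 to 1.32 for CSF3R, -0.11 to 1.25 for VCAN and -0.30 to 1.24 for ALOX5. CSF3R was at -0.04 without siCTRL replicate 3. Without both arrays numbered 1 the values were -0.40, 0.12, -0.08, 0.31, -0.15 and -0.13 in the same order of genes. The list medians ranged with each array left out from -0.20 to 0.14 for azurophil granules, -0.0689 to -0.0029 for specific granules, -0.0683 to 0.15 for cytokine receptors, 0.0275 to 0.12 for eicosanoid genes, -0.0543 to 0.0861 for transcription factors, -0.14 to 0.25 for monocyte genes -0.30 to 0.41 for G2/M genes and -0.96 to -0.05 for interferon genes. Without both arrays numbered 1 the receptors were at 0.0369, the matrix genes at 0.00633, the monocyte genes at -0.01 and the interferon genes at 0.08. With the dim filter, which leaves fewer genes, the medians were -0.11 for specific granules, 0.26 for eosinophil genes, 0.14 for eicosanoid genes, 0.14 for erythroid, -0.19 for megakaryocyte and -0.16 for stem cell markers. Signal over background was not analysed here, so dim genes such as VCAN are the least certain.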
